A study of Homo sapiens with 40 samples.

Results

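Targets and feedback genes of bone morphogenetic protein (BMP) and transforming growth factor beta (TGF-beta) signalling were followed in RKO, an established cell line from a human colorectal carcinoma. These 8 genes are ID1, ID2, ID3, SMAD6, SMAD7, BAMBI, BMP4 and SKIL. They were taken by symbol from a table of 19962 genes measured in 40 RNA sequencing libraries. They were chosen in part from measured values: the rise of ID1 with doxycycline (Dox) in all 3 lines of the study. Every Dox comparison of these 8 genes below is therefore a description, and none of them is given a p-value. How many passed a threshold is stated only beside the share of all genes that did.

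Each library came from cells that carry Cas9 under a Dox-inducible promoter together with GFP, and a lentiviral vector with a pair of guide RNAs (sg) and the blue fluorescent protein eBFP2. The guides were directed against IGF2BP2, against IGF2BP3 or, as the control, against the AAVS1 locus. The vectors drive the guides from U6 promoters, and the lines are sorted populations of eBFP2-positive cells rather than single clones. Each line was sampled with the solvent DMSO and with Dox at 250 ng/mL for 72 hours. The sgIGF2BP2 line was also transfected with siControl, a non-targeting small interfering RNA (siRNA), or with siIGF2BP2. The sgIGF2BP3 line was transfected with siControl or with siIGF2BP3. The siRNAs were used at 75 nM for 48 hours, and the labels name no Dox or DMSO for these cells. All 40 libraries share 2 hours of labelling with the nucleoside s4U at 250 µM, the first step of SLAMseq, but the values used here count all RNA of a gene, old and new. Each of the 10 groups has 4 libraries from separate culture wells, so the p-values measure the spread between wells of one experiment.

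BMPs and TGF-betas are secreted ligands that bring together pairs of receptor kinases at the cell surface. The receptors phosphorylate SMAD proteins, which enter the nucleus with SMAD4 and switch target genes on or off. Several of those targets feed back on the pathway. SMAD6 and SMAD7 are inhibitory SMADs that block the receptors, BAMBI is a decoy receptor with no kinase domain, and SKIL (SnoN) is a nuclear co-repressor of SMADs. ID1, ID2 and ID3 are classic BMP target genes, and their helix-loop-helix proteins cannot bind DNA and hold E proteins such as TCF3 and TCF12 away from it. In colorectal tissue BMP signalling is known for favouring differentiation over stem cell growth.

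The promoters are shown because several of the 8 genes are classic direct targets of the same signal, while their core promoters differ. All 8 genes matched RefSeq promoter windows (12 windows, build GRCh38.p14). The 250 bases before each start were searched on both strands for 4 motifs. GTCTAGAC, a pair of SMAD boxes, lay in 0.182% of all 35116 windows and GGCGCC, a GC-rich SMAD site, in 16.4%. TGACGTCA, a cAMP response element, lay in 1.65% and the TATA box TATAAA in 10.7%. Among the 8 genes, GTCTAGAC was found in SMAD6, GGCGCC in BAMBI, BMP4 and SKIL, TGACGTCA in SKIL, and TATAAA in ID1 and SMAD7. SMAD7 and BMP4 have several windows, and their motifs lay in only 1 window each. The shares count windows, while these matches count genes. The stretches below run 5′ to 3′ on the plus strand and have the motif in capitals. For ID1 at chr20:31605039-31605288 the capitals cover overlapping copies of TATAAA on both strands, the first of which begins 33 bases before the start. The other stretches are SKIL at chr3:170357650-170357679 and SMAD6 at chr15:66702206-66702235, with motifs that begin 54 and 12 bases before the start.
ID1: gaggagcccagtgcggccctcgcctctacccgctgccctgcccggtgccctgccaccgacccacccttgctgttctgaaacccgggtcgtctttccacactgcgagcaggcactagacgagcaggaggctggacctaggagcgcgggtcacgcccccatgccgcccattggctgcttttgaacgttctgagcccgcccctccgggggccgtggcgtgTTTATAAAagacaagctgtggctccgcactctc
SKIL: cgaggactcggTGACGTCAgagggctgtgt
SMAD6: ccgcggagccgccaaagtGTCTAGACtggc

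The libraries held 10018181 to 24822807 counts in genes, and 11428 genes passed the filter on low counts, including all 8 followed here. Levels are in CPM, read counts relative to the library total after TMM scaling, a correction for differences in RNA composition. The targeted genes were lower as labelled: with Dox, IGF2BP2 fell from 85.3 to 33.9 CPM in the sgIGF2BP2 line and IGF2BP3 from 180 to 56.2 CPM in the sgIGF2BP3 line. In the sgIGF2BP2 line IGF2BP3 also fell with Dox, from 179 to 151 CPM (edgeR adjusted p = 2.9e-06). With siRNA they fell from 108 to 30.2 CPM and from 170 to 24.7 CPM. In the sgAAVS1 line, which serves as the Dox control, SPOP, a substrate adaptor of a ubiquitin ligase, fell with Dox from 36.7 to 11.4 CPM. There, 250 tested genes beyond SPOP on the long arm of chromosome 17 had a median log2 fold change of -0.17. In sgIGF2BP3 cells with Dox, 79 genes beyond IGF2BP3 on the short arm of chromosome 7 had a median of -0.15. None of the 8 genes lies in either stretch, and the part of these changes in the results below was not tested. Epithelial EPCAM, KRT8, KRT18 and CDX2 were present at medians of 13.9 to 191 CPM, while KRT19, CDH1 and VIL1 had at most 4 counts in any library. The fibroblast, leukocyte and endothelial markers had at most 11 counts. Replicate 2 of the Dox-treated sgIGF2BP2 cells stood apart, with a chi-square per gene of 10.2 to 14.3 against the rest of its group, which lay at 1.97 to 2.58 among themselves. Replicate 3 of the siIGF2BP2 group did so less, at 5.07 to 5.79 against 1.46 to 1.75. Values of the 8 genes without these libraries stand beside the comparisons within the sgIGF2BP2 line that they enter. For differences between effects they are not given for every gene. These are bulk libraries, so fewer cells and less RNA per cell cannot be told apart.

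Per kilobase of exon, ID1 was the most abundant of the 8 genes, with a median of 19.2 CPM per kilobase, followed by ID3 at 7.29 and BAMBI at 2.17. SKIL (0.725), ID2 (0.689) and SMAD7 (0.647) were close to each other, BMP4 stood at 0.302 and SMAD6 was lowest at 0.0624. These levels set the precision of what follows. ID1 was read 224 to 592 times per library and ID3 124 to 373 times. SMAD6 was read 1 to 19 times, BMP4 4 to 27 times and ID2 10 to 37 times, so changes below about the size of their intervals were not detectable at this depth. At the median count, counting error alone has a coefficient of variation of 5.48% for ID1 and 37.8% for SMAD6. No exon of the 8 genes overlaps another gene of the table.

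**Figure D1:**
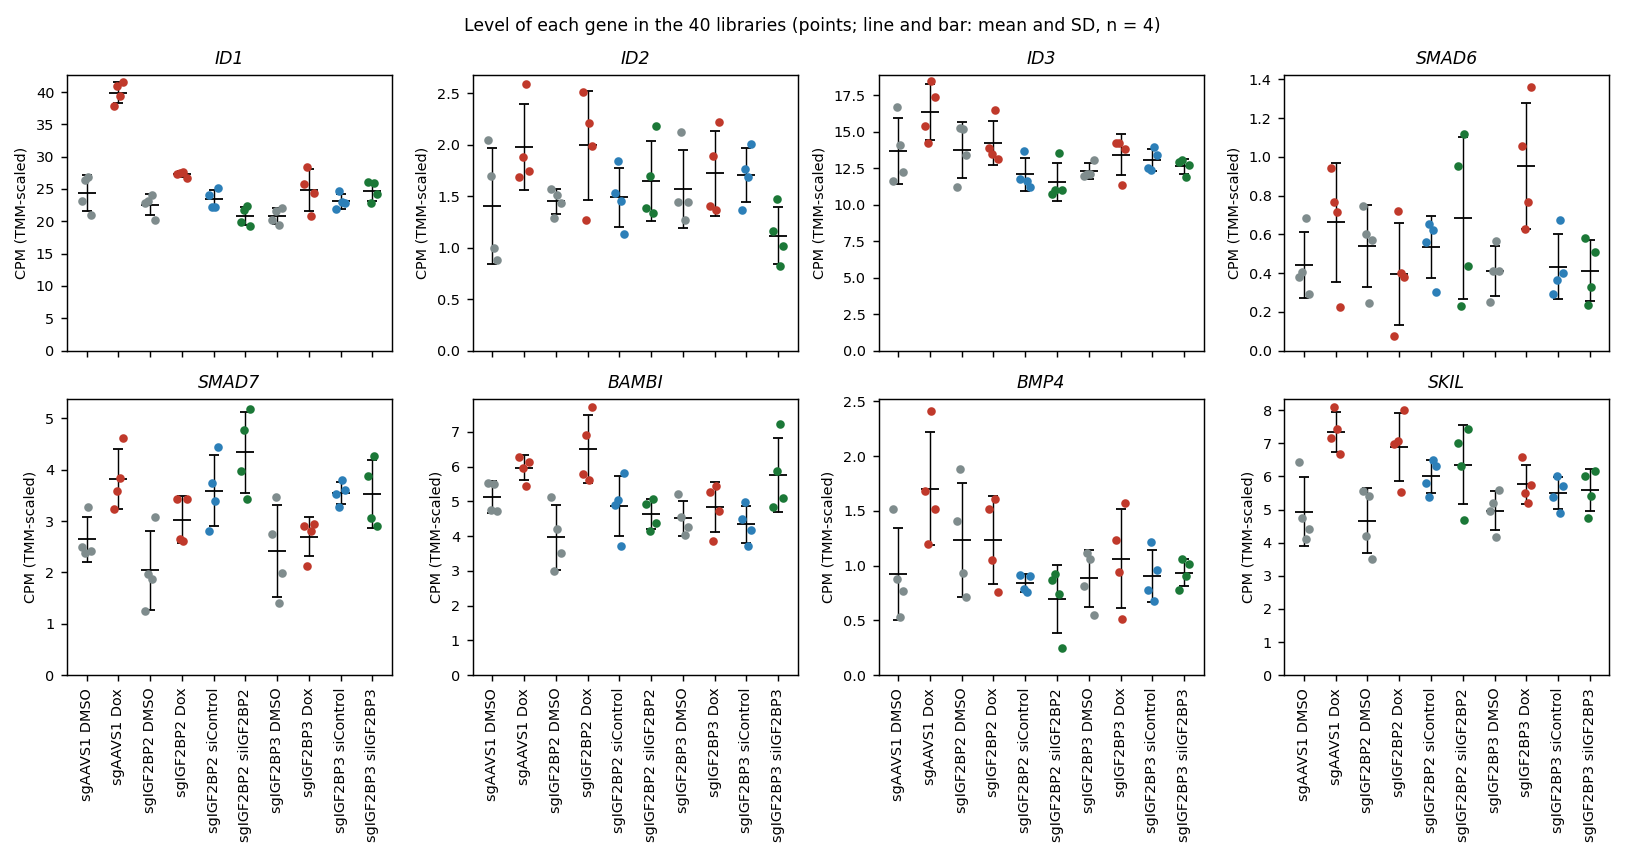
Level of each of the 8 genes in TMM-scaled CPM (vertical axis, one scale per gene, from 0) in the 10 groups (horizontal axis), with a point per library and a line and bar for the mean and SD of 4 libraries. For ID1 the sgAAVS1 Dox libraries, at 37.8 to 41.5 CPM, lie above all others, while SMAD6 and BMP4 stay under 2.5 CPM and scatter widely within groups.

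ID1 (ENSG00000125968, chr20:31605283-31606515, plus strand, build hg38) responded most clearly in the control line. In sgAAVS1 cells with DMSO its 4 libraries read 23.2, 26.4, 26.8 and 21.0 CPM, and with Dox they read 37.8, 40.9, 39.4 and 41.5 CPM. The groups did not overlap, and ID1 was 1.64-fold higher with Dox (log2 fold change 0.72, SE 0.07). In sgIGF2BP2 cells it read 22.8, 23.1, 24.1 and 20.3 CPM with DMSO and 27.4, 27.5, 27.7 and 26.8 CPM with Dox. This was again without overlap, but by 1.20-fold (0.27, SE 0.07; 0.26 without replicate 2). In sgIGF2BP3 cells it read 20.2, 21.6, 19.5 and 22.1 CPM with DMSO and 25.8, 28.4, 20.8 and 24.4 CPM with Dox. Here 1 Dox library fell inside the range of the DMSO libraries and the mean was 1.19-fold higher (0.25, SE 0.07).

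The Dox change of ID1 was thus lower in the lines with IGF2BP guides than in the control line. The difference from sgAAVS1 was -0.45 on the log2 scale (95% interval -0.65 to -0.25) for sgIGF2BP2 cells and -0.46 (-0.67 to -0.26) for sgIGF2BP3 cells. Both differences share the sgAAVS1 libraries, in which SPOP also fell. Ordered by mean level, sgAAVS1 Dox was highest at 39.9 ± 1.68 CPM (SD, n = 4) and did not overlap the next group, sgIGF2BP2 Dox at 27.3 ± 0.396 CPM. From there down to siIGF2BP2 at 20.8 ± 1.46 CPM, each group overlapped its neighbour in the order.

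ID3 (ENSG00000117318, chr1:23557918-23559794, minus strand) shared the 2 highest groups with ID1 but differed between them by less. In sgAAVS1 cells it read 11.6, 16.7, 14.1 and 12.2 CPM with DMSO and 15.4, 14.2, 18.5 and 17.4 CPM with Dox. The groups overlapped, and the log2 fold change was 0.26 (SE 0.10). In sgIGF2BP2 cells it was 0.02 (95% interval -0.17 to 0.21), or 0.047 without Dox replicate 2, and in sgIGF2BP3 cells 0.13 (-0.07 to 0.33). ID2 (ENSG00000115738, chr2:8678845-8684453, plus strand) averaged 1.40 ± 0.559 CPM with DMSO and 1.97 ± 0.419 CPM with Dox in sgAAVS1 cells (SD, n = 4). Its log2 fold changes were 0.49 (SE 0.25), 0.40 (SE 0.24) and 0.13 (SE 0.24) in the sgAAVS1, sgIGF2BP2 and sgIGF2BP3 lines, with overlapping libraries in each. Without Dox replicate 2 the sgIGF2BP2 value of ID2 was 0.61. The fourth gene of the family, ID4, was listed at 0 in all 40 libraries.

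The inhibitory SMADs were read less often, and their Dox changes have wide errors. SMAD7 (ENSG00000101665, chr18:48919853-48952052, minus strand), which blocks both TGF-beta and BMP receptors, read 2.50, 2.37, 3.28 and 2.41 CPM with DMSO and 3.24, 3.58, 3.84 and 4.62 CPM with Dox in sgAAVS1 cells. Its lowest Dox library lay just under the highest DMSO library, and the log2 fold change was 0.54 (SE 0.20). In sgIGF2BP2 cells it was 0.56 (SE 0.21; 0.64 without Dox replicate 2) and in sgIGF2BP3 cells 0.13 (SE 0.21). The sgIGF2BP2 DMSO libraries had the lowest mean SMAD7 level of all 10 groups, 2.04 CPM. SMAD6 (ENSG00000137834, chr15:66702228-66782848, plus strand), which acts mainly on BMP receptors, read 0.251, 0.412, 0.565 and 0.413 CPM with DMSO and 1.06, 0.630, 0.767 and 1.36 CPM with Dox in sgIGF2BP3 cells. Those groups did not overlap, on 4 to 8 counts against 8 to 19, and the fold was 2.34 with a 95% interval of 1.32 to 4.16. In sgAAVS1 cells its log2 fold change was 0.62 (SE 0.45). In sgIGF2BP2 cells it was -0.20 (SE 0.47), and -0.80 without replicate 2.

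BAMBI (ENSG00000095739, chr10:28677342-28682939, plus strand) was the gene that differed most in the sgIGF2BP2 line. It read 5.13, 3.00, 4.20 and 3.51 CPM with DMSO and 5.78, 6.91, 5.62 and 7.70 CPM with Dox, without overlap, a log2 fold change of 0.72 (SE 0.14; 0.68 without replicate 2). The values were 0.23 (SE 0.14) in sgAAVS1 cells and 0.09 (SE 0.15) in sgIGF2BP3 cells. The sgIGF2BP2 change exceeded the sgAAVS1 change by 0.49 (95% interval 0.09 to 0.89), and the sgIGF2BP2 DMSO libraries had the lowest mean BAMBI level of all 10 groups, 3.96 ± 0.922 CPM (SD, n = 4).

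SKIL (ENSG00000136603, chr3:170357678-170396835, plus strand) read 6.44, 4.74, 4.12 and 4.42 CPM with DMSO and 7.15, 8.10, 7.42 and 6.67 CPM with Dox in sgAAVS1 cells. The groups did not overlap, and the log2 fold change was 0.58 (SE 0.14). It was nearly the same size in sgIGF2BP2 cells, 0.55 (SE 0.14; 0.54 without replicate 2), where 1 Dox library fell among the DMSO libraries. In sgIGF2BP3 cells it was 0.21 (SE 0.14), and the difference from sgAAVS1 was -0.37 (95% interval -0.77 to 0.03). With offsets for GC content and length that difference was -0.18. The lowest mean SKIL level of the 10 groups was that of sgIGF2BP2 DMSO, 4.67 CPM.

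BMP4 (ENSG00000125378, chr14:53949736-53958761, minus strand), the ligand of the set, read 1.52, 0.880, 0.534 and 0.766 CPM with DMSO and 1.69, 1.19, 2.41 and 1.52 CPM with Dox in sgAAVS1 cells. The groups overlapped, with 2 Dox libraries under the highest DMSO library, and the log2 fold change was 0.88 (SE 0.30), from 0.69 to 1.19 when each library in turn was left out. In sgIGF2BP2 cells it was 0.04 (SE 0.30; 0.12 without Dox replicate 2) and in sgIGF2BP3 cells 0.28 (SE 0.33). The plot of changes shows these values with their intervals.

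**Figure D2:**
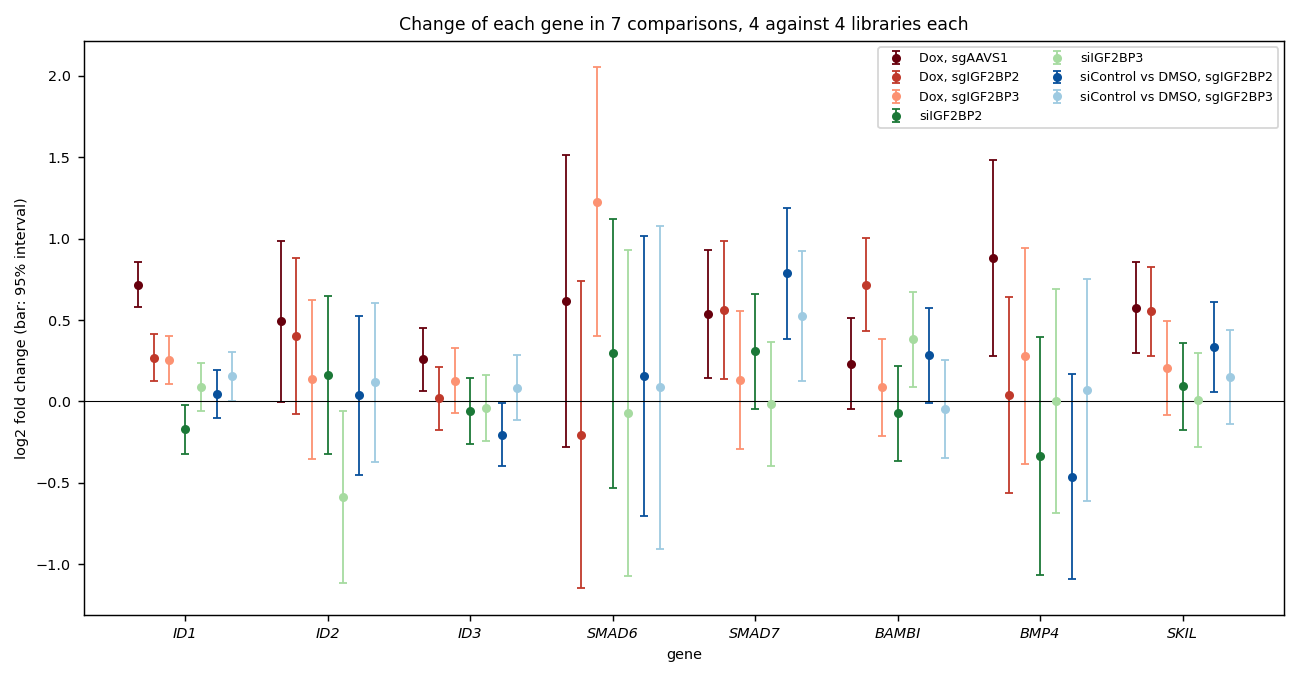
Log2 fold change of each of the 8 genes (horizontal axis) in 7 comparisons of 4 against 4 libraries, with bars for the 95% interval. ID1 has the narrowest intervals and lies highest with Dox in sgAAVS1 cells (0.72), and the siRNA comparisons lie around 0 for most genes.

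As a set, the 8 genes were higher with Dox in most cases. All 8 had a positive log2 fold change in sgAAVS1 cells, 7 in sgIGF2BP2 cells (all but SMAD6) and 8 in sgIGF2BP3 cells, with medians of 0.56, 0.33 and 0.17. The medians over all tested genes were 0.0044, 0.0077 and 0.0027. The genes were chosen in part on these contrasts, so the counts that follow are a description and test no gene. At an adjusted p under 0.05 (edgeR, over all genes), 3 of the 8 were higher in sgAAVS1 cells where 7.25% of all genes were. In sgIGF2BP2 cells 4 were higher beside 10.0% of all genes, and in sgIGF2BP3 cells 1 was higher beside 1.64%. Without overlap between libraries, 2 of the 8 were higher in sgAAVS1 cells (background 8.04%), 2 in sgIGF2BP2 cells (8.92%) and 1 in sgIGF2BP3 cells (5.76%). These counts use the same contrasts as the choice of genes and support nothing by themselves.

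The siRNA comparisons used no library of the Dox comparisons and were tested. A gene is said to be called at an adjusted p under 0.05 (edgeR, over all tested genes). With siIGF2BP2, ID1 read 19.9, 21.8, 22.3 and 19.3 CPM against 24.1, 22.2, 22.2 and 25.2 CPM with siControl. Its libraries overlapped by a narrow margin, and its log2 fold change of -0.17 (SE 0.07) missed the threshold (edgeR adjusted p = 0.064). Its sign was opposite to that of the Dox change in the same line (0.27). It was the same as that of the difference between that Dox change and the sgAAVS1 Dox change (-0.45). ID1 passed the threshold with offsets for GC content and length (-0.23, adjusted p = 0.0065), and without siControl replicate 2 (adjusted p = 0.0497) or siIGF2BP2 replicate 3 (adjusted p = 0.038). With siIGF2BP3, ID1 read 26.0, 22.8, 25.9 and 24.2 CPM against 21.9, 24.6, 23.0 and 22.9 CPM, a log2 fold change of 0.09 (95% interval -0.06 to 0.23, edgeR adjusted p = 0.67).

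None of the 8 genes was called by edgeR with siIGF2BP2, where 36.8% of all tested genes were. At an unadjusted p under 0.05 there was 1 of the 8 (ID1) beside 44.8% of all genes, and DESeq2 called 0. SMAD7 was the gene with the next smallest p (log2 fold change 0.31, SE 0.18, edgeR adjusted p = 0.17). Without siIGF2BP2 replicate 3, SMAD7 stood at 0.41 (adjusted p = 0.083) and the other 6 genes between -0.39 and 0.25, with adjusted p of at least 0.24. With all libraries, the 95% intervals were -0.26 to 0.14 for ID3, -0.37 to 0.22 for BAMBI and -0.18 to 0.36 for SKIL. In size, the outer limits for BAMBI and SKIL exceeded the change called for the pathway gene BHLHE40 in the same comparison (-0.30). For these genes the missing call therefore sets only a wide bound on the change.

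With siIGF2BP3, edgeR called 0 of the 8 genes beside 2.34% of all genes. At an unadjusted p under 0.05 there were 2 (background 13.8%), and DESeq2 called 0. BAMBI read 4.85, 5.87, 7.22 and 5.08 CPM against 4.50, 4.98, 3.71 and 4.17 CPM with siControl, which is 0.38 on the log2 scale (SE 0.15, edgeR adjusted p = 0.18). ID2 read 1.16, 1.47, 0.821 and 1.02 CPM against 1.37, 1.76, 1.69 and 2.01 CPM, a difference of -0.59 (SE 0.26, edgeR adjusted p = 0.28). Both overlapped their controls. Between the knockdowns, edgeR called a difference for 0 of the 8 genes (background 18.7%). At an unadjusted p under 0.05 there were 3 (background 30.4%), and DESeq2 called 0. These were ID2, with siIGF2BP3 minus siIGF2BP2 at -0.75 (edgeR adjusted p = 0.14), BAMBI at 0.46 (adjusted p = 0.12) and ID1 at 0.26 (adjusted p = 0.077). ID1 passed with the GC and length offsets (0.31, adjusted p = 0.017), and without siIGF2BP2 replicate 3 (adjusted p = 0.0496) or siIGF2BP3 replicate 2 (adjusted p = 0.049).

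The siControl and DMSO groups of a line differ in transfection, solvent and hours of treatment together, and share their DMSO libraries with the Dox comparisons. SMAD7 was the 1 gene of the 8 that was called here. In sgIGF2BP2 cells it read 1.24, 1.97, 1.87 and 3.08 CPM with DMSO and 2.81, 3.74, 3.38 and 4.45 CPM with siControl. This DMSO group had the lowest mean SMAD7 level of the 10 groups. The log2 fold change was 0.79 (SE 0.20, edgeR adjusted p = 0.0028) although the highest DMSO library lay inside the siControl range, and 18.4% of all genes were called. At an unadjusted p under 0.05 there were 3 of the 8 genes, beside 30.0% of all genes. In sgIGF2BP3 cells SMAD7 read 2.76, 3.48, 1.41 and 2.00 CPM with DMSO and 3.52, 3.28, 3.80 and 3.61 CPM with siControl. The difference of 0.52 (SE 0.20) missed the threshold (edgeR adjusted p = 0.056). It passed without DMSO replicate 2 (0.76, adjusted p = 0.0090), with no filter on low counts (adjusted p = 0.045) and with only these groups in the fit (adjusted p = 0.042). There, edgeR called 0 of the 8 genes beside 19.4% of all genes, with 2 at an unadjusted p under 0.05 (background 31.6%) and 0 by DESeq2. SKIL was higher with siControl by 0.33 in sgIGF2BP2 cells (SE 0.14, edgeR adjusted p = 0.086) and ID3 lower (-0.20, SE 0.10, adjusted p = 0.14). Without DMSO replicate 3 SKIL passed (0.45, adjusted p = 0.045), and without DMSO replicate 1 ID3 passed (-0.28, adjusted p = 0.042).

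Without Dox, no difference between lines in these genes reached the adjusted threshold. The DMSO comparisons share their libraries with the Dox comparisons that entered the choice of genes, so their p-values are not independent of that choice. In each of the 3 DMSO comparisons between lines and in the siControl comparison, edgeR called 0 of the 8 genes, and 0.0175% of all genes. At an unadjusted p under 0.05 there was 1 of the 8 in sgIGF2BP2 against sgAAVS1 (BAMBI, background 6.32%) and 1 in sgIGF2BP3 against sgAAVS1 (ID1, background 11.6%). The comparisons of sgIGF2BP3 with sgIGF2BP2 had 0 with DMSO (background 5.71%) and 0 with siControl (background 5.90%), and DESeq2 called 0 in all 4. ID1 was lower in sgIGF2BP3 than in sgAAVS1 cells by -0.22 on the log2 scale (SE 0.07, edgeR adjusted p = 0.22), and without sgAAVS1 DMSO replicate 4 by -0.29 (adjusted p = 0.049). BAMBI was lower in sgIGF2BP2 than in sgAAVS1 cells by -0.35 (SE 0.15, edgeR adjusted p = 0.75).

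To place the 8 genes in their pathway, 66 other genes of BMP and TGF-beta signalling were listed by role, and 46 were tested. Among the 20 left out by the filter were the ligands BMP2, BMP6 and BMP7, with at most 10 counts in any library, and BMPR1B and the antagonist NOG, listed at 0. With Dox, 8 were higher and 3 lower in sgAAVS1 cells, 14 and 1 in sgIGF2BP2 cells, and 2 and 1 in sgIGF2BP3 cells (adjusted p under 0.05), with medians over the 46 of 0.04, 0.08 and 0.05. The background shares of genes called in either direction were 15.9%, 20.4% and 2.64%.

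FSTL3, a secreted antagonist of activins, was called higher in all 3 lines, with log2 fold changes of 0.48 (SE 0.10, edgeR adjusted p = 0.00059), 0.50 (SE 0.10, adjusted p = 0.00012) and 0.62 (SE 0.10, adjusted p = 4.1e-05). ANGPTL4, a TGF-beta target that encodes a lipase inhibitor, rose by 0.12 in sgAAVS1 cells (edgeR adjusted p = 0.047), 0.32 in sgIGF2BP2 and 0.22 in sgIGF2BP3 cells. HES1, a Notch target of the helix-loop-helix class, rose from 6.26 to 11.7 CPM in sgAAVS1 cells (0.92, SE 0.13) and from 5.48 to 8.73 CPM in sgIGF2BP2 cells (0.62, SE 0.13). Its change in sgIGF2BP3 cells was lower than in sgAAVS1 cells by -0.66 (SE 0.19, edgeR adjusted p = 0.017). TCF3, an E protein that ID proteins bind, fell by 0.14 in sgAAVS1 cells (edgeR adjusted p = 0.0035) and by 0.19 in sgIGF2BP2 cells (adjusted p = 4.4e-05), and its value in sgIGF2BP3 cells was 0.0025 (adjusted p = 0.98). SMAD3, which carries TGF-beta signals, and ENG, a co-receptor, were also called higher in sgAAVS1 cells, by 1.02 (SE 0.23) and 0.77 (SE 0.21), at 1.60 and 2.05 CPM with DMSO. Both were called in sgIGF2BP2 cells too, by 0.73 (SE 0.25) and 0.60 (SE 0.21), and neither was called in sgIGF2BP3 cells. These low-level genes fell outside the naming rule and were singled out after their values were seen.

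SMURF2, a ubiquitin ligase that works with SMAD7, fell by 0.22 with Dox in sgAAVS1 cells and lies on chromosome 17 beyond SPOP, among the 250 genes whose median was -0.17. BMPR1A, a BMP receptor, rose by 0.27 in sgAAVS1 cells (edgeR adjusted p = 0.015), and lost the call without DMSO replicate 2 (0.19, adjusted p = 0.13). JUNB, an AP-1 factor induced by TGF-beta, rose by 0.22 in sgAAVS1 and 0.25 in sgIGF2BP2 cells. In sgIGF2BP2 cells SNAI1 (0.44) and BHLHE40 (0.37), both transcription factors reported as TGF-beta targets, rose too. Without Dox replicate 2 of that line, 15 pathway genes were again called, FSTL3 stood at 0.37 (edgeR adjusted p = 0.011), and HES1, ANGPTL4, JUNB, SNAI1 and BHLHE40 stayed called at 0.23 to 0.67.

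**Figure D3:**
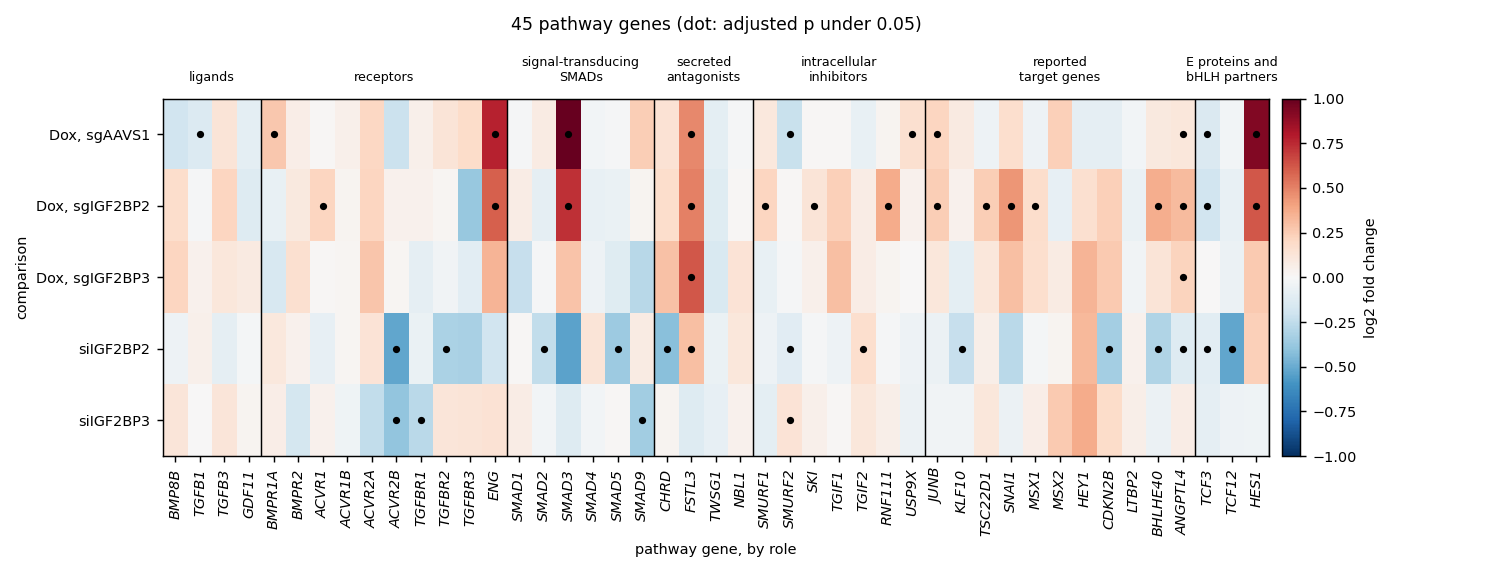
Log2 fold change (colour, clipped at -1 and 1) of 45 pathway genes (columns, by role) in the 3 Dox and 2 siRNA comparisons (rows), where a dot marks an adjusted p under 0.05. Dots lie mostly on higher values in the first 2 rows and on lower values in the siIGF2BP2 row, where 12 dots mark lower and 2 higher genes.

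With siIGF2BP2, 2 pathway genes were higher and 13 lower of 46, beside 18.4% of all genes in each direction and 36.8% in both together. Without siIGF2BP2 replicate 3, 16 were called. The list median was -0.05, against 0.01 over all genes. Lower genes included TCF12, an E protein (-0.52, SE 0.05, edgeR adjusted p = 4.9e-13), the activin receptor ACVR2B (-0.52, SE 0.08), SMAD5, which carries BMP signals (-0.37, SE 0.06), the cell cycle inhibitor CDKN2B (-0.34), the receptor TGFBR2 (-0.31) and BHLHE40 (-0.30). With siIGF2BP3, 1 was higher and 4 lower (background 2.34%). ACVR2B (-0.39, SE 0.08, edgeR adjusted p = 0.00063), TGFBR1 (-0.27) and SMAD9 (-0.35) were among the lower genes, and SMURF2 was higher (0.14). SMAD9 (adjusted p up to 0.12) and SMURF2 (up to 0.095) each lost the call in 3 fits that left out 1 library, sgIGF2BP3 siControl replicate 2 among them. The knockdowns differed for 11 of 46 genes, 9 of them higher with siIGF2BP3 (background 18.7%). In siControl against DMSO, 9 pathway genes were higher and 3 lower in sgIGF2BP2 cells, and 9 higher and 1 lower in sgIGF2BP3 cells, beside 18.4% and 19.4% of all genes. ACVR2B was higher by 0.55 and 0.62, TGFBR2 by 0.36 and 0.24, and BHLHE40 by 0.29 and 0.23. The inhibitor TGIF1 (0.37 and 0.45) and the reported target TSC22D1 (0.36 and 0.23) were higher too. SNAI1 was lower in sgIGF2BP2 cells (-0.39). The siControl libraries are thus not at the DMSO level for these genes. In sgIGF2BP2 cells ACVR2B read 11.7 CPM with DMSO, 17.2 with siControl and 12.0 with siIGF2BP2. In the same order TGFBR2 read 17.9, 23.0 and 18.5 CPM, and BHLHE40 82.1, 100 and 81.4 CPM. These genes were called in both comparisons, which share the siControl libraries with opposite sign. TCF12, SMAD5 and CDKN2B, also lower with siIGF2BP2, were not called between siControl and DMSO in that line.

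Over the 40 libraries the highest Pearson r of any pair of the 8 genes was that of ID1 and ID3, at 0.70. Over the 10 group means it was 0.89, below the 0.95 of ID3 and BMP4, and within groups it was 0.42. The within-group value of ID1 and ID3 was 0.25 after each library's trend on GC content and length was removed. The points share their libraries, their groups and their scaling. ID1 and BMP4 correlated at 0.55 over libraries and 0.20 within groups (0.15 after the same correction). ID1 and SKIL correlated at 0.50 over libraries and 0.12 within groups, and at 0.36 after the correction, above ID1 and ID3. Within groups ID3 ran opposite to BAMBI (-0.42, and -0.52 after the same correction) and to SKIL (-0.43, and -0.24).

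Among the 9957 tested genes above the level limit (mean log2 CPM 2), the 5 whose pattern over the 40 libraries was most like ID1 were ADM (Pearson r = 0.84), IGFBP6 (0.80), GPX3 (0.80), GABARAPL1 (0.78) and IER5L (0.77). ADM encodes the peptide hormone adrenomedullin, IGFBP6 a binding protein of insulin-like growth factors, GPX3 a secreted glutathione peroxidase and GABARAPL1 an autophagy protein. Within groups their r with ID1 lay between -0.03 and 0.44, so the likeness lay mostly between groups. All 5 were higher with Dox in sgAAVS1 cells, by 0.40 to 1.23 on the log2 scale. IER5L was higher by 0.90 and 1.08 in the sgIGF2BP2 and sgIGF2BP3 lines, where ID1 stood at 0.27 and 0.25. These genes were chosen for this pattern, so their values are a description.

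**Figure D4:**
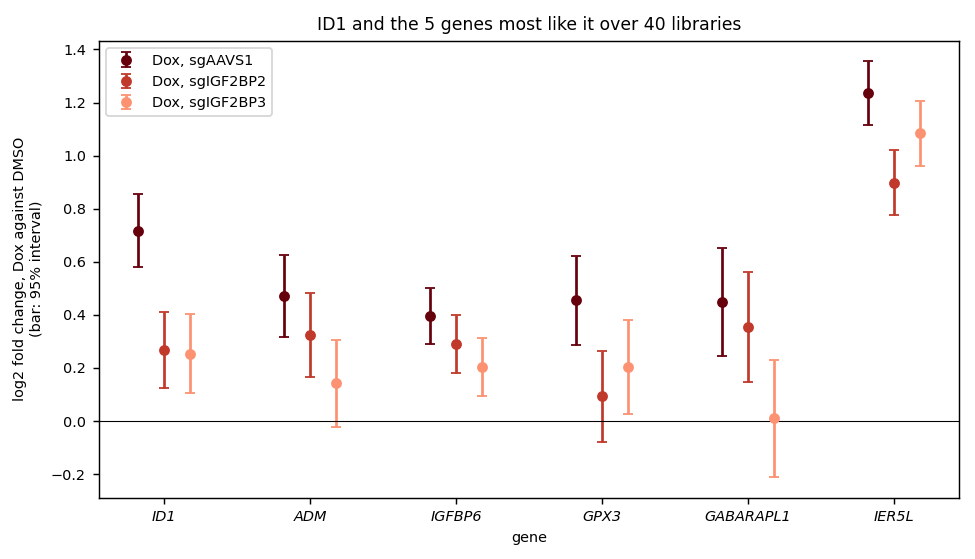
Log2 fold change with Dox against DMSO (vertical axis, bar: 95% interval) of ID1 and the 5 genes most like it, in the 3 lines. The sgAAVS1 value is the highest of the 3 lines for each gene, and IER5L alone stays near 1 in all 3, at 0.90 to 1.23.

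For each of the other genes the highest Pearson r over 40 libraries lay below the 0.84 of ID1 and ADM. ID3 was most like JUNB (0.75) and MUC12 (0.75), SMAD7 like ADGRE5 (0.77) and BCAM (0.76), and SKIL like HECA (0.68) and CHD2 (0.67). BAMBI was most like PI4K2A (0.62) and RHOD (0.61), and ID2 like ZNF805 (0.64) and FAF2 (0.59). BMP4 was most like GABARAPL1 (0.63), which is also among the genes most like ID1, and ELL (0.61). SMAD6, with the fewest reads, had the weakest partners, C14orf93 (0.53) and MYL6 (0.52).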

How the data were processed

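Total RNA counts were analysed for 40 SLAMseq libraries of 10 groups, assigned from the labels. The deposited table holds raw read counts (whole numbers), with 1 row per Ensembl identifier. The submitters' processing notes name bcl2fastq 2.20.0.422, STAR 2.7.5c and hg38, and the kit was directional per the labels' protocols. The counting tool, its strand setting and the annotation are not given in the sources used here. Symbols and positions came from GENCODE 29, which held 19847 of 19962 identifiers. Counts were scaled by TMM (factors 0.978 to 1.03), filtered by group with filterByExpr and tested with edgeR 4.0.16 (quasi-likelihood, 1 coefficient per group, R 4.3.3), with Benjamini-Hochberg adjustment over 11428 genes and a threshold of 0.05. The test was checked on simulated counts. Fold changes are edgeR's, and correlations use log2 CPM with a prior count of 2. Totals of 10018181 to 24822807 and a common biological coefficient of variation of 3.79% set the precision. Alternatives were DESeq2 1.42.0, its size factors, no filter, a replicate block, GC and length offsets, only the groups compared, CPM on total counts, and each library left out in turn.

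The 8 genes, the pathway list and the tests were chosen with earlier results of these data known. Pathway genes were named by rule: up to 6 per comparison by size of log2 fold change, if called, not overlapping (not asked of differences between effects) and above a mean log2 CPM of 2, and the 5 (ID1) or 2 (others) genes of highest Pearson r to each of the 8. 1 pathway gene is counted but not reported by name here. Conversion of s4U was not analysed here.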

Additional observations from a re-analysis of the deposited data

Results flagged for a closer look

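In 5 of 80 sets of 4 libraries of the 8 genes, 1 library stood far from the rest, where chance gives about 1 in 20. ID3 read 13.5 CPM in siIGF2BP2 replicate 3 beside at most 11.0 in the others. In sgIGF2BP3 cells ID3 read 13.1 CPM in DMSO replicate 4 beside 12.0 to 12.1, and 11.3 CPM in Dox replicate 3 beside 13.8 to 14.3. SMAD7 read 3.28 CPM in sgAAVS1 DMSO replicate 3 beside 2.37 to 2.50, and 2.13 CPM in sgIGF2BP3 Dox replicate 2 beside 2.81 to 2.94.

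Effects of pathway genes differed between treatments or lines by edgeR's test of the difference (adjusted p under 0.05) for the genes that follow. On the log2 scale, siIGF2BP3 minus siIGF2BP2 was 0.53 for CDKN2B, 0.47 for TCF12, 0.44 for TGFBR2, 0.38 for SMAD5, -0.43 for SMAD9 and -0.43 for FSTL3. The Dox effect of sgIGF2BP2 cells minus that of sgAAVS1 cells was 0.30 for TSC22D1, 0.27 for BHLHE40, 0.23 for SMURF2 and 0.20 for ANGPTL4. For sgIGF2BP3 cells it was -0.66 for HES1, -0.52 for SMAD9, -0.43 for BMPR1A, 0.21 for SMURF2 and 0.18 for TGFB1. Both SMURF2 differences rest on the sgAAVS1 line, where SMURF2 lies in the stretch of chromosome 17 with a lower median.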

How the results depend on the processing

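Depth limits SMAD6, BMP4 and ID2 most. Of the 8 genes, the number called became 1 with GC and length offsets for siIGF2BP2 and for the difference between knockdowns (ID1 in both), and 1 with no filter and with only the groups compared for siControl against DMSO in sgIGF2BP3 cells (SMAD7). With no filter, 1 pathway gene was called between sgIGF2BP3 and sgAAVS1 cells with DMSO, against 0. Leaving out 1 library at a time, the number of the 8 genes called ran from 0 to 1 for siIGF2BP2, for the difference between knockdowns, for siControl against DMSO in sgIGF2BP3 cells and for sgIGF2BP3 against sgAAVS1 with DMSO. It ran from 1 to 2 for siControl against DMSO in sgIGF2BP2 cells. The number of pathway genes called ran from 3 to 5 for siIGF2BP3 (3 without sgIGF2BP3 siControl replicate 2) and from 0 to 2 for sgIGF2BP3 against sgAAVS1 with DMSO (2 without sgAAVS1 DMSO replicate 4). For the Dox difference of either line from sgAAVS1 it ran from 3 to 8, with 8 without sgAAVS1 DMSO replicate 4, and 3 without sgIGF2BP2 DMSO replicate 1 or sgIGF2BP3 Dox replicate 4. The causes were not tested.

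Named pathway calls were lost most often for ANGPTL4 in the sgIGF2BP2 Dox difference (9 of 22 fits) and FSTL3 between knockdowns (5 of 22). TSC22D1, BMPR1A and TGFB1 lost theirs in 3 of 22 fits each in the Dox differences, and SMAD9 and SMURF2 in 3 of 14 with siIGF2BP3. With GC and length offsets the ANGPTL4, BMPR1A and TGFB1 differences were 0.11 (adjusted p = 0.20), -0.35 (0.057) and 0.076 (0.40).

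Changes near 0 switched sign. BMP4 with siIGF2BP3 was -0.0031 with the replicate block. For sgIGF2BP3 against sgAAVS1 with DMSO, offsets gave 0.00073 for BMP4 and -0.081 for SKIL. For SMAD7 between the siControl groups the value was -0.0011 with DESeq2 size factors, -0.0018 with no filter, -0.0049 with the replicate block, -0.025 with offsets, -0.0064 by DESeq2 and -0.00021 with only the groups compared. Leaving out 1 library switched the sign of these, given as ranges. For siIGF2BP2: BAMBI -0.18 to 0.0063, ID2 -0.024 to 0.27, ID3 -0.15 to 0.0029, SKIL -0.0043 to 0.21, SMAD6 -0.065 to 0.57. For siIGF2BP3: BMP4 -0.11 to 0.21, SKIL -0.042 to 0.088, SMAD6 -0.30 to 0.20, SMAD7 -0.11 to 0.060. Between knockdowns: ID3 -0.043 to 0.11, SKIL -0.20 to 0.013. For siControl against DMSO in sgIGF2BP2 cells: ID1 -0.0011 to 0.092, ID2 -0.069 to 0.13, SMAD6 -0.23 to 0.36, and in sgIGF2BP3 cells BAMBI -0.14 to 0.030, BMP4 -0.14 to 0.22, SMAD6 -0.18 to 0.26. For sgIGF2BP2 against sgAAVS1 with DMSO: ID2 -0.12 to 0.30, ID3 -0.043 to 0.14, SKIL -0.16 to 0.10, SMAD6 -0.031 to 0.55. For sgIGF2BP3 against sgAAVS1: BMP4 -0.20 to 0.28, SKIL -0.045 to 0.17, SMAD6 -0.26 to 0.18, SMAD7 -0.33 to 0.080. For sgIGF2BP3 against sgIGF2BP2 with DMSO: ID2 -0.070 to 0.21, SKIL -0.042 to 0.18, and with siControl BMP4 -0.062 to 0.26, ID1 -0.050 to 0.020, SMAD7 -0.12 to 0.11. None of these passed the threshold in any of the fits run, with adjusted p of at least 0.24.

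Same-numbered libraries shared little deviation (correlations from -0.0896 to 0.0966), so the numbers were not used to pair the samples. These correlations cannot show whether wells were handled in matched sets. With the replicate block, 0 of the 8 genes were called for siIGF2BP2 and siIGF2BP3 and 1 for siControl against DMSO in sgIGF2BP2 cells, and 16 and 5 pathway genes for the knockdowns.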
